A study of Homo sapiens with 6 samples.

Results

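The 9 genes described here belong to the DHRS group of short-chain dehydrogenases and reductases: DHRS2, DHRS4, DHRS1, DHRS3, DHRS7, DHRS9, DHRS11, DHRS12 and DHRS13. They were taken by symbol from the 63186 gene rows of a count table, 1 row for each symbol. DHRS2 was chosen by its large difference in count between the groups, so its values in that contrast are a description and carry no test. The others were taken by family name. The study sequenced RNA from RBE, a human intrahepatic cholangiocarcinoma line, that is, a cancer line from the bile ducts within the liver. In 3 cultures CHAF1A was knocked down with siRNA (si-CHAF1A), and 3 cultures received a control siRNA (si-Ctrl). Both groups were transfected with Lipofectamine 3000 at about 60% confluency, had their medium changed after 24 h and were harvested at 48 h. The 3 samples of a group are called biological replicates, with no word on separate passages or days. The spread behind each p-value is estimated from the replicates within both groups and drawn toward that of other genes. It may be technical.

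Short-chain dehydrogenases and reductases are single-domain enzymes that use NAD(H) or NADP(H) to interconvert alcohols and carbonyls. The DHRS enzymes act mainly on retinoids, steroids, dicarbonyls and foreign carbonyl compounds. DHRS2, also called HEP27, reduces dicarbonyls and is known as a partner of MDM2, a ubiquitin ligase. CHAF1A encodes the large subunit of chromatin assembly factor 1, which places histones H3 and H4 on newly copied DNA.

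CHAF1A itself had 11.1, 12.9 and 11.2 CPM (counts scaled to the size of each library) in the si-CHAF1A libraries, against 51.5, 59.8 and 51.0 CPM in the si-Ctrl libraries. It fell by 2.21 on the log2 scale (SE 0.10, adjusted p = 2.57e-10 by edgeR's quasi-likelihood test). The libraries held between 15643381 and 20918997 counts. Of 15911 genes with enough counts to test, 2944 were higher and 3064 lower in si-CHAF1A at an adjusted p under 0.05. These are 18.5% and 19.3% of the genes tested, or 37.8% in either direction, and the groups' libraries did not overlap in 48.2% of genes. With scaling by library totals alone the split was 3447 higher and 2455 lower. The second principal component (11.2% of the variance) set 1 library apart, si-Ctrl 2. Without it 3519 genes were higher and 3709 lower, and named results whose call it decides are given without it too. The biliary markers KRT7, KRT19, KRT8, KRT18, EPCAM and SOX9 were present in all 6 libraries. Their summed level was 5319 to 5839 CPM in si-CHAF1A and 4111 to 4779 CPM in si-Ctrl. KRT19, KRT8, KRT18 and EPCAM were higher, KRT7 did not pass the test and SOX9 was lower (log2 fold change -0.26, adjusted p = 0.0067).

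DHRS2 was among the well expressed genes after CHAF1A knockdown and low in the control cells. DHRS2 (ENSG00000100867, plus strand of chr14:23630115-23645639, GRCh38) had 8690, 8840 and 9319 counts in the si-CHAF1A libraries, against 64, 81 and 73 counts in the si-Ctrl libraries. Scaled for depth, these were 516.6, 507.7 and 522.7 CPM in si-CHAF1A and 4.09, 4.09 and 4.19 CPM in si-Ctrl. The 3 libraries of each group lay close together, with a coefficient of variation of 1.47% in si-CHAF1A and 1.30% in si-Ctrl. On 64 to 81 counts the si-Ctrl spread, here and below, is smaller than counting noise and does not measure reproducibility. The lowest si-CHAF1A library was 121 times the highest si-Ctrl library. The means were 516 ± 7.58 CPM in si-CHAF1A and 4.12 ± 0.0536 CPM in si-Ctrl (SD, n = 3 each), a ratio of 125 and a fitted log2 fold change of 6.96 (SE 0.08). Among the 15911 genes tested, this fold change ranked at position 19 from the top. DHRS2 reads made up 0.0517% to 0.0529% of all counts in the si-CHAF1A libraries. In RNA from whole cultures, more cells that express a gene and more RNA per cell cannot be told apart.

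**Figure D1:**
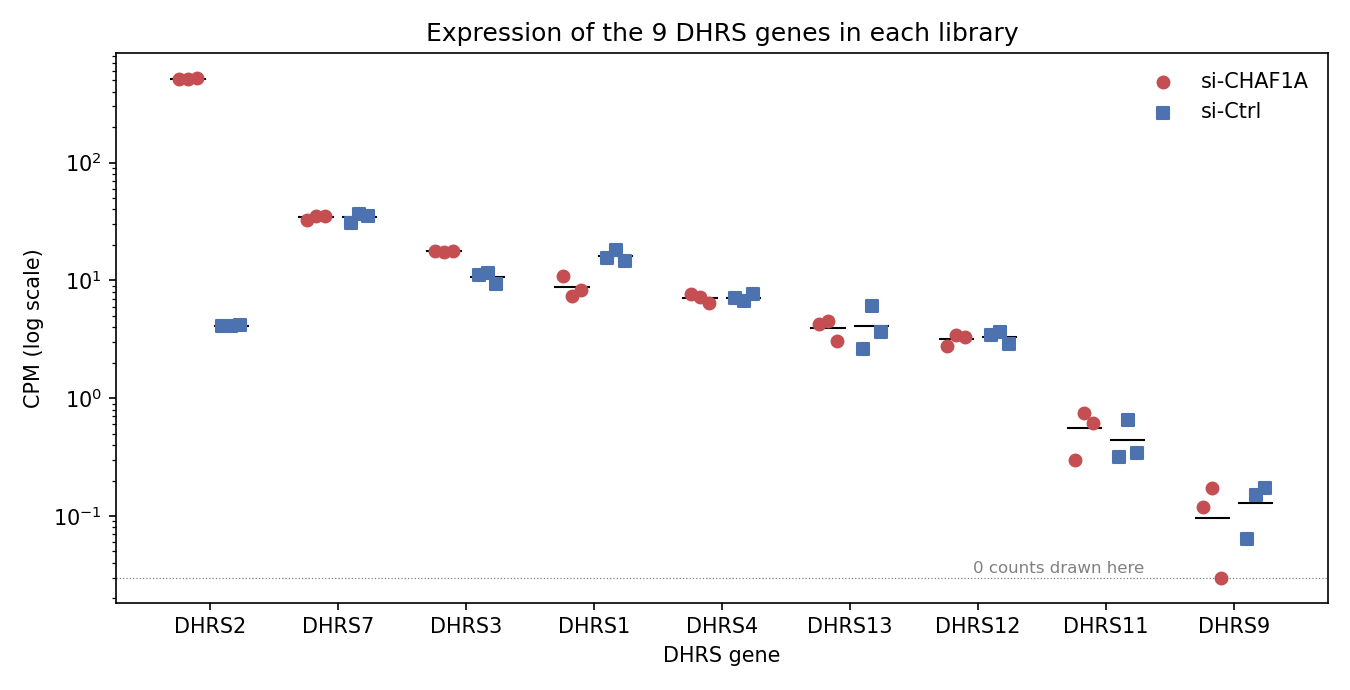
CPM of each of the 9 DHRS genes (log scale) in the 3 si-CHAF1A libraries (circles) and the 3 si-Ctrl libraries (squares), with a bar at each group's mean. DHRS2 is the single gene whose groups lie orders of magnitude apart (516 against 4.12 CPM), DHRS3 is moderately higher and DHRS1 moderately lower in si-CHAF1A, and the others overlap.

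The sequence upstream of DHRS2 differs from that of most DHRS genes, and the 250 bases before the annotated start are shown for DHRS2 with those of DHRS9, the most similar in composition, and of DHRS4, the closest relative of DHRS2 in the same stretch of chromosome 14. They are from RefSeq (GRCh38.p14) and run 5′ to 3′ on the plus strand, which is the strand of all 3 genes. The regions are chr14:23629865-23630114 for DHRS2, chr2:169066827-169067076 for DHRS9 and chr14:23953520-23953769 for DHRS4. Capitals mark CpG dinucleotides and the letters TATAAA, a form of the TATA box.
DHRS2: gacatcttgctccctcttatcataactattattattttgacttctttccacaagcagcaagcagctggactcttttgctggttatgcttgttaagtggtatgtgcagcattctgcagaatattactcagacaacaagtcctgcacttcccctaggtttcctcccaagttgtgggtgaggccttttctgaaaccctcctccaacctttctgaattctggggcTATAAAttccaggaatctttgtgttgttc
DHRS9: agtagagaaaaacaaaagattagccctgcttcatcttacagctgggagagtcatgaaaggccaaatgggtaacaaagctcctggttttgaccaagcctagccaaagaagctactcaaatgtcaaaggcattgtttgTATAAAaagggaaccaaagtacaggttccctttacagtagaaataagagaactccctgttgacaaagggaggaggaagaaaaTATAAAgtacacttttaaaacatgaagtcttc
DHRS4: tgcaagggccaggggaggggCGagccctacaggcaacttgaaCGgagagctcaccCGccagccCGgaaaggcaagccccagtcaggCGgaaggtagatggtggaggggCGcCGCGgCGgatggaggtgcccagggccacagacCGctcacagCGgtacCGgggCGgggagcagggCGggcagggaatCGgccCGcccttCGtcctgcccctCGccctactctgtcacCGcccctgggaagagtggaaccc
The DHRS2 stretch held 0 CpG dinucleotides, 43.2% G and C, and TATAAA starting 29 bases before the gene start. The DHRS9 stretch also held 0 CpG, with 39.2% G and C and TATAAA at 32 and 114 bases before the start. The DHRS4 stretch was of the opposite kind, with 19 CpG, 70.8% G and C and 4 copies of GGGCGG, the GC box.

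RefSeq gave such a stretch for 8 of the 9 genes. Where a gene had several, the one of the most upstream start was used and the others were not examined. DHRS9 had 4, DHRS3 and DHRS12 had 3 each, and DHRS1 had 2. DHRS1, DHRS3, DHRS4, DHRS11, DHRS12 and DHRS13 held 19 to 29 CpG and no TATAAA. Over the stretches of 27305 genes the median was 10 CpG, 6.38% held 0 CpG, 11.2% held TATAAA and 42.2% held GGGCGG, each motif counted on both strands. GGGCGG was found in 5 of the 8 stretches, and neither in DHRS2 nor in DHRS9. These are matches of letters and do not show that a factor binds there. Of the 10 DHRS2 transcripts in the GENCODE 29 annotation, 2 begin within 50 bases of the gene start. The longest coding transcript begins 6.22 kb further in. The gene counts do not tell which transcript was made.

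**Figure D2:**
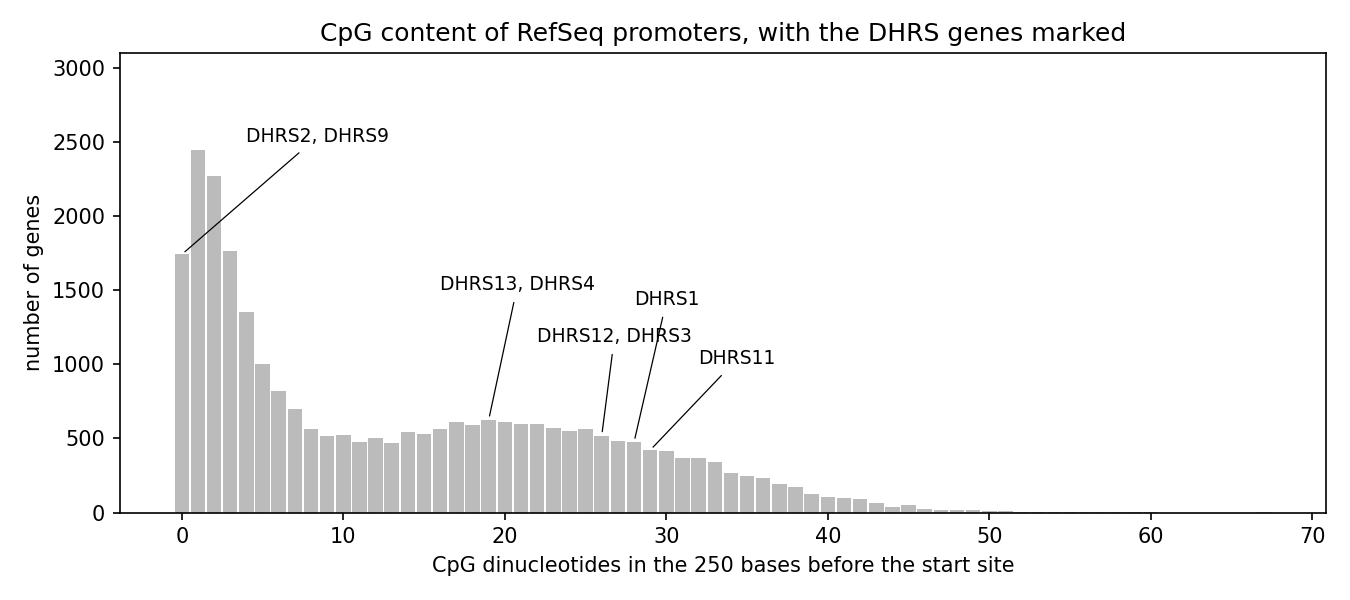
Number of genes (vertical axis) by the count of CpG dinucleotides in the 250 bases before their most upstream RefSeq start (horizontal axis), with lines to the bins of 8 DHRS genes. DHRS2 and DHRS9 are in the bin of 0 CpG and the other 6 in bins of 19 to 29.

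DHRS4, a peroxisomal reductase of retinal and other carbonyls, is the DHRS2 relative nearest to it on the chromosome, with its start 323.5 kb away on the same strand. It had 7.61, 7.29 and 6.39 CPM in si-CHAF1A, against 7.10, 6.67 and 7.68 CPM in si-Ctrl. The groups overlapped, and the log2 fold change was -0.01 (SE 0.14, adjusted p = 0.965). The longest coding transcripts of DHRS2 and DHRS4 were 73.2% identical over 790 aligned columns. None of the 1556 windows of 150 bases in this DHRS2 transcript occurred in another gene's transcripts, so no exact read of that length within them is shared. Only exact matches were sought, and exonic bases of the other DHRS2 transcripts were not searched. For DHRS4, 12.1% of such windows also occurred in DHRS4L1 or DHRS4L2, and its reads may be split with those copies.

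The enzymes of retinoid metabolism among the 9 did not move together. DHRS3, which reduces all-trans-retinal to retinol and is a known retinoic acid target, rose. DHRS3 had 17.7, 17.4 and 17.9 CPM in si-CHAF1A, against 11.1, 11.6 and 9.23 CPM in si-Ctrl. All 3 si-CHAF1A libraries lay above all 3 si-Ctrl libraries, a 1.66-fold difference (log2 fold change 0.73, SE 0.11, adjusted p = 9.1e-05). DHRS7, a membrane-bound reductase of retinoids and steroids, had 32.8, 35.2 and 35.2 CPM in si-CHAF1A and 30.8, 36.9 and 35.5 CPM in si-Ctrl. These values overlap, with a log2 fold change of -0.00 (SE 0.09, adjusted p = 0.991). DHRS9, which oxidises retinol and 3-alpha-hydroxysteroids, was at the edge of detection. It had 2, 3 and 0 counts in the si-CHAF1A libraries and 1, 3 and 3 counts in the si-Ctrl libraries and could not be tested. These counts showed no large rise of DHRS9 in si-CHAF1A, and a small difference was not detectable at this depth.

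DHRS1, a reductase of the endoplasmic reticulum that acts on steroids and foreign carbonyls, fell. It had 10.9, 7.35 and 8.25 CPM in si-CHAF1A, against 15.4, 18.2 and 14.7 CPM in si-Ctrl. Every si-CHAF1A library was below every si-Ctrl library, and the level was 1.82-fold lower (log2 fold change -0.87, SE 0.14, adjusted p = 0.000202). DHRS11, a cytosolic reductase of 17-ketosteroids, was low throughout, with 5, 13 and 11 counts in si-CHAF1A and 5, 13 and 6 counts in si-Ctrl. Its libraries overlapped (log2 fold change 0.30, SE 0.49, adjusted p = 0.672), and leaving out 1 library at a time moved that value between 0.03 and 0.72.

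DHRS12 and DHRS13, whose substrates are little described, did not pass the test. DHRS12 had 2.79, 3.45 and 3.31 CPM in si-CHAF1A and 3.45, 3.64 and 2.87 CPM in si-Ctrl (log2 fold change -0.06, SE 0.20, adjusted p = 0.841). Of its windows of 150 bases, 15.8% were shared with 1 other gene model that had no counts. DHRS13 had 4.28, 4.54 and 3.09 CPM in si-CHAF1A and 2.62, 6.01 and 3.61 CPM in si-Ctrl. The highest and the lowest of these 6 values were both controls, and the log2 fold change of -0.06 (SE 0.26, adjusted p = 0.880) became 0.33 without si-Ctrl 2, the library that stood apart (adjusted p = 0.279). Of the 7 tested genes other than DHRS2, then, 1 was higher, 1 was lower and 5 did not pass, beside 37.8% of all genes called in either direction.

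Levels of different genes were compared as CPM per kilobase of the longest coding transcript (RPKM). In the si-CHAF1A libraries DHRS2 stood first at 302 ± 4.45 RPKM (SD, n = 3). It was followed by DHRS7 at 14.8 ± 0.612, DHRS3 at 10.3 ± 0.145, DHRS1 at 5.98 ± 1.26 and DHRS4 at 4.92 ± 0.437 RPKM. In the si-Ctrl libraries the order was DHRS7 at 14.8 ± 1.38, DHRS1 at 10.9 ± 1.26, DHRS3 at 6.17 ± 0.715, DHRS4 at 4.96 ± 0.353 and DHRS2 at 2.42 ± 0.0314 RPKM. DHRS3 thus stood above DHRS1 in si-CHAF1A and below it in si-Ctrl on this length. On all annotated exonic bases it was above DHRS1 in si-CHAF1A, at 5.82 against 1.77 RPKM. In si-Ctrl the means on that length were 3.50 RPKM for DHRS3 and 3.21 RPKM for DHRS1. Their control libraries overlapped, at 3.04 to 3.81 RPKM for DHRS3 and 2.93 to 3.64 RPKM for DHRS1. On transcript length DHRS1 and DHRS4 overlapped in si-CHAF1A, as did DHRS13 and DHRS12 in both groups and DHRS2 and DHRS13 in si-Ctrl. DHRS13 and DHRS12 were between 1.62 and 2.00 RPKM on average in either group, DHRS11 was at 0.346 RPKM in si-CHAF1A and 0.276 RPKM in si-Ctrl, and DHRS9 was lowest.

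DHRS2 took 88.3 ± 0.295% of the summed RPKM of the 9 genes in si-CHAF1A and 5.62 ± 0.462% in si-Ctrl. The sum was 342 ± 4.28 RPKM in si-CHAF1A and 43.2 ± 3.48 RPKM in si-Ctrl. Without DHRS2 it was 39.9 ± 0.836 RPKM in si-CHAF1A and 40.8 ± 3.49 RPKM in si-Ctrl, a difference smaller than the spread between the control libraries. DHRS7 had 4.33 ± 0.201% of the sum in si-CHAF1A and 34.3 ± 2.03% in si-Ctrl, the largest share in the controls. Among 12870 protein-coding genes ranked by RPKM, DHRS2 stood at position 112 in si-CHAF1A and 9453 in si-Ctrl. The length matters here: divided by all annotated exonic bases in place of 1 transcript, DHRS2 was at 68.2 RPKM in si-CHAF1A and 0.546 RPKM in si-Ctrl, with 74.3% of the sum in si-CHAF1A and 2.34% in si-Ctrl. On that length it stood below DHRS12 in the controls.

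**Figure D3:**
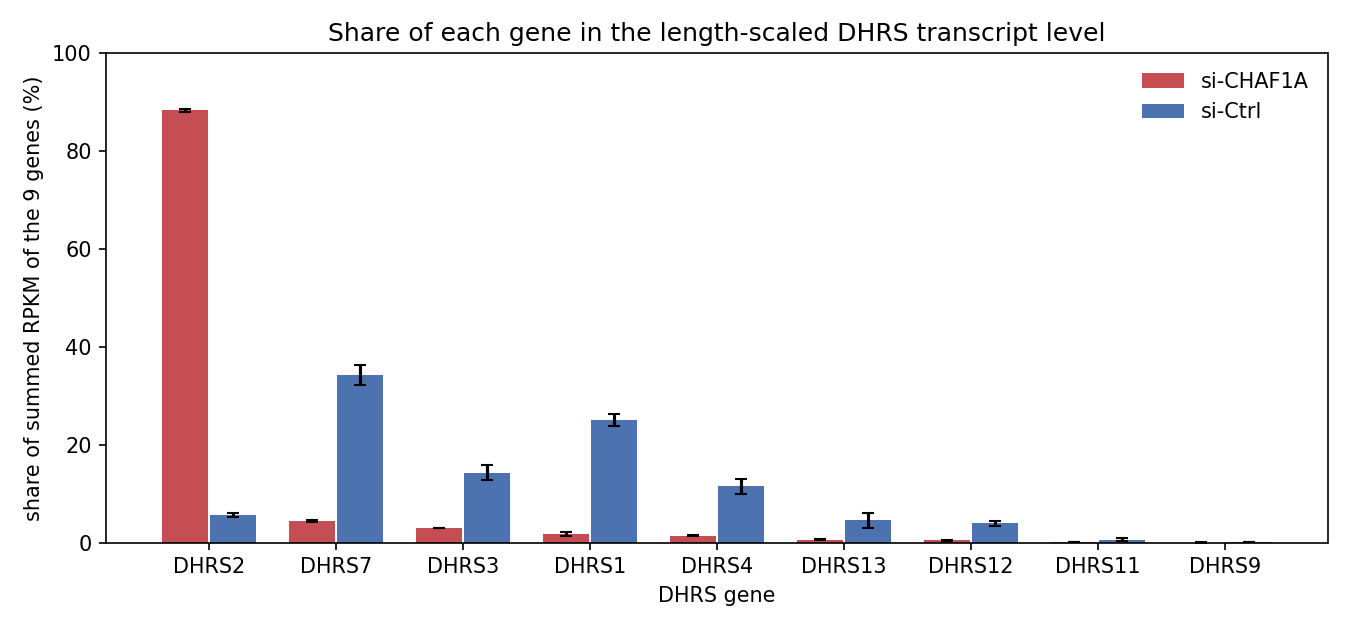
Share of each DHRS gene in the summed RPKM of the 9 genes (percent), as the mean over 3 libraries with SD bars, si-CHAF1A left of si-Ctrl for each gene. DHRS2 holds 88.3% in si-CHAF1A and 5.62% in si-Ctrl, where DHRS7 is largest at 34.3%.

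Other genes of the DHRS nomenclature had log2 fold changes between -0.29 and 0.59. Of 8 such genes 6 could be tested, with 3 higher and 1 lower, beside 18.5% and 19.3% of all genes. DHRS4-AS1, a transcript antisense to DHRS4, had 10.8, 14.5 and 15.1 CPM in si-CHAF1A, against 8.89, 9.20 and 8.83 CPM in si-Ctrl. It did not overlap between the groups and was 1.50-fold higher (log2 fold change 0.59, SE 0.13, adjusted p = 0.00289). The strand setting of the counting is not given in the sources used here, so reads of DHRS4 and of DHRS4-AS1 may not be fully separated. BDH2, a cytosolic dehydrogenase also named DHRS6, rose with a log2 fold change of 0.37 (SE 0.14, adjusted p = 0.043). HSD17B11, a lipid droplet enzyme also named DHRS8, rose by 0.28 on the log2 scale (SE 0.10, adjusted p = 0.0296). The BDH2 call was lost with DESeq2 (adjusted p = 0.0662) and without the filter on low counts (0.0536). Both calls were lost on leaving out any single library other than si-Ctrl 3. Without si-Ctrl 2, for example, their adjusted p values were 0.127 for BDH2 and 0.0589 for HSD17B11.

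DHRS7B, a peroxisomal enzyme of ether lipid synthesis, was only just past the threshold at -0.29 (SE 0.11, adjusted p = 0.0499), with overlapping libraries. It was no longer past it without si-Ctrl 2 (adjusted p = 0.109), without si-Ctrl 3 (0.0597), without si-CHAF1A 1 (0.198) or without si-CHAF1A 2 (0.164). DHRS4L2, a copy of DHRS4 with 29.5% of its windows shared, had a log2 fold change of 0.21 (adjusted p = 0.413). DHRS7C had 0 counts in every library and DHRS4L1 at most 2. DHRSX varied within the groups more than between them, with 91, 92 and 5 counts in si-CHAF1A and 122, 77 and 12 counts in si-Ctrl. It was lowest in replicate 3 of both groups.

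The genes around DHRS2 with enough counts to test did not share its change. Within 0.5 Mb on either side of its start lay 47 other genes, of which 17 had no count in any library and 16 could be tested. Of these 3 were higher and 2 lower, or 31.2% against 37.8% of all genes tested, and their median log2 fold change was -0.14. The nearest tested gene, AP1G2, which encodes an adaptor subunit of vesicle coats, starts 62.0 kb before DHRS2. AP1G2 had 23.1, 24.3 and 25.9 CPM in si-CHAF1A and 19.6, 22.1 and 20.8 CPM in si-Ctrl (log2 fold change 0.23, adjusted p = 0.0637). Without si-Ctrl 2 it passed the test (adjusted p = 0.0169), and the number of higher neighbours became 5. That number was 4 without the filter on low counts and 4 with library totals only. ZFHX2, a homeobox gene, and THTPA, a thiamine triphosphatase, came next at -0.13 (adjusted p = 0.576) and -0.20 (adjusted p = 0.579). On the other side the nearest tested genes were DHRS4, DHRS4L2 and DHRS4-AS1.

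The called neighbours were all over 300 kb away. SLC7A8, an amino acid exchanger 446 kb before DHRS2, was low, with 22, 44 and 15 counts in si-CHAF1A and 7, 10 and 4 counts in si-Ctrl. It rose by 1.96 on the log2 scale (SE 0.47, adjusted p = 0.00372). SLC7A8 passed the filter on low counts only through its high si-CHAF1A libraries, so its call is a description. PCK2, the mitochondrial phosphoenolpyruvate carboxykinase, had a log2 fold change of 0.78 (SE 0.11, adjusted p = 3.96e-05). BCL2L2, an inhibitor of cell death, fell by 0.58 (SE 0.10, adjusted p = 0.000226), though it overlaps the readthrough gene BCL2L2-PABPN1 and reads may be split between them. DCAF11, a substrate receptor of a ubiquitin ligase, fell by 1.36 on the log2 scale (SE 0.10, adjusted p = 6.01e-08). JPH4, chosen after its values were seen and too low to test, starts 51.3 kb before DHRS2 and had 4, 10 and 11 counts in si-CHAF1A and 0, 2 and 0 counts in si-Ctrl. DHRS1, 669.7 kb from DHRS2, and DHRS7, 36.5 Mb away, are the other members on chromosome 14.

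**Figure D4:**
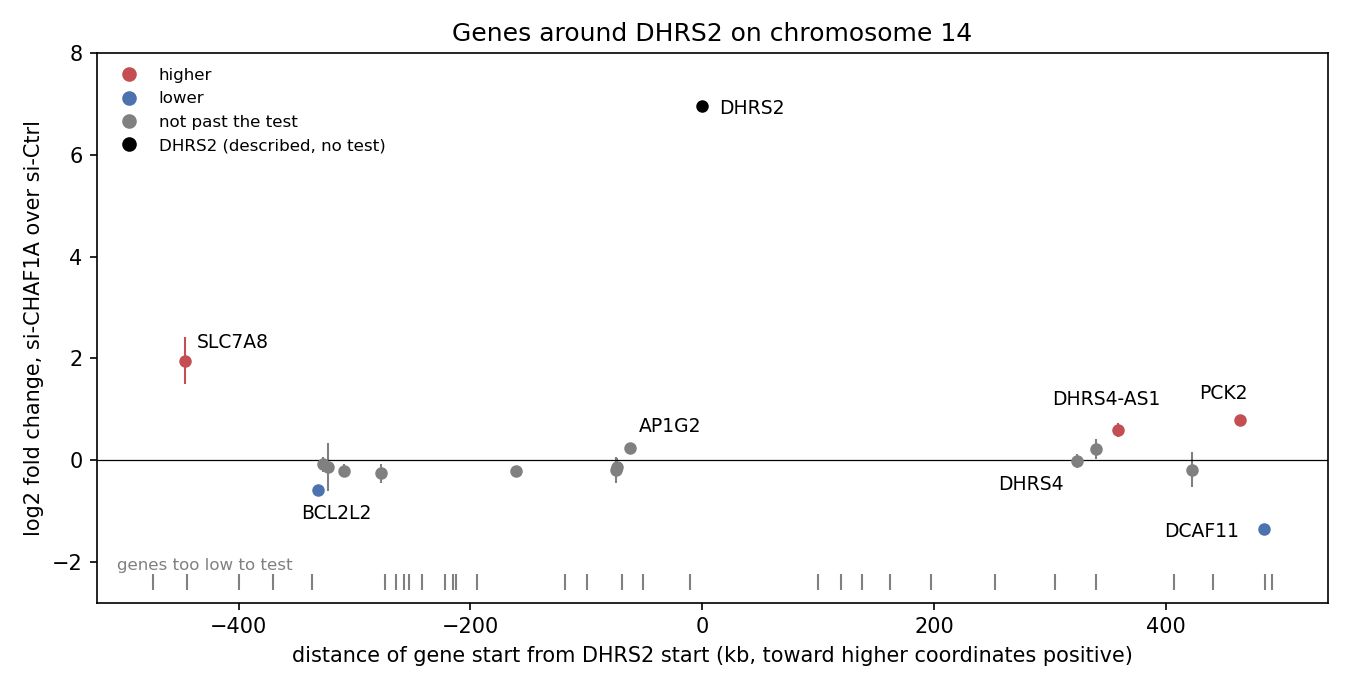
Log2 fold change of si-CHAF1A over si-Ctrl (vertical axis, bars of 1 SE) against the distance of each gene's start from the DHRS2 start in kb. DHRS2 stands at 6.96 while the 16 tested neighbours lie between DCAF11 at -1.36 and SLC7A8 at 1.96, and ticks at the bottom mark genes too low to test.

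The genes with the expression pattern most like DHRS2 were sought over the 6 libraries by the Euclidean distance between log2 CPM values. They were WARS2-AS1 (distance 4.34), DNAH3 (5.17), SLC6A8 (6.19), MKNK2 (6.53) and BICD2 (6.56). WARS2-AS1, a transcript antisense to a mitochondrial tryptophan-tRNA ligase gene, had 107, 110 and 111 CPM in si-CHAF1A, against 9.08, 7.18 and 11.1 CPM in si-Ctrl. DNAH3, an axonemal dynein heavy chain, had 104, 110 and 112 CPM in si-CHAF1A and 0.959, 1.21 and 0.803 CPM in si-Ctrl. DNAH3 came closest in size of change, with a log2 fold change of 6.75 beside 6.96 for DHRS2, and a lower level in CPM after knockdown. SLC6A8, the creatine transporter, MKNK2, a kinase of a translation factor, and BICD2, a dynein adaptor, had smaller log2 fold changes of 2.19, 1.82 and 1.67. All 5 were matched on the contrast itself, so their fold changes are a description.

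Several genes of retinoid metabolism outside the DHRS group were higher in si-CHAF1A. Of 27 retinoid pathway genes outside the short-chain superfamily 16 could be tested. Of these 8 were higher and 1 lower in si-CHAF1A, with a median log2 fold change of 0.37, beside 18.5% of all genes higher, 19.3% lower and a median of 0.00. Without si-Ctrl 2 the count was 10 higher and 1 lower. The 8 include CYP26B1 and CYP26A1, which passed the filter on low counts only through their high si-CHAF1A libraries. Their calls and p-values are therefore a description and add no support. CYP26B1, which degrades retinoic acid, had 3.80, 4.54 and 4.54 CPM in si-CHAF1A and 0.448, 0.505 and 0.688 CPM in si-Ctrl, and rose by 2.95 on the log2 scale (SE 0.27, adjusted p = 4.97e-07). CRABP2, which carries retinoic acid to its receptors, had 8.14, 8.27 and 10.8 CPM in si-CHAF1A, against 2.75, 3.08 and 1.89 CPM in si-Ctrl (log2 fold change 1.81, SE 0.19, adjusted p = 2.97e-06). In both genes every si-CHAF1A library was above every si-Ctrl library. RARG, a retinoic acid receptor, rose 1.94-fold (adjusted p = 1.06e-05), and TGM2, a transglutaminase and retinoic acid target, rose 1.49-fold (adjusted p = 2.92e-05). With all libraries 7 of the tested genes did not pass. Their log2 fold changes ran from -0.25 for RARB to 0.35 for LRAT, both named after their values were seen.

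CYP26A1, ALDH1A1 and NRIP1 were named after their values were seen. CYP26A1, the other main retinoic acid hydroxylase, had a log2 fold change of 3.13 (SE 0.56, adjusted p = 0.000401) on 46 counts in the 3 si-CHAF1A libraries and 5 in the 3 si-Ctrl libraries. On so few control counts its size was loose, at 3.80 without si-Ctrl 3. Only its si-CHAF1A libraries passed the filter on low counts. ALDH1A1, which makes retinoic acid, had one of 0.40 (adjusted p = 0.02), a call lost without si-CHAF1A 1, si-CHAF1A 3 or si-Ctrl 1 (adjusted p = 0.0624, 0.142 and 0.0672). NRIP1, a corepressor of nuclear receptors, fell by 0.34. Of 9 retinol dehydrogenases of the same superfamily 4 were tested. RDH10, which oxidises retinol in the embryo and adult, rose by 0.34 on the log2 scale (adjusted p = 0.00577), and RDH11, which reduces retinal, fell by 0.50 (adjusted p = 1.55e-05). RDH14 and RDH5 had log2 fold changes of -0.13 and -0.00 and did not pass.

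The list counts that follow stand beside 37.8% of all genes called, 18.5% higher and 19.3% lower. They rest on few genes, and the lists as sets were not tested. Of 17 steroid dehydrogenases of the superfamily 9 were tested, with 0 higher and 2 lower and a median of 0.07. HSD17B7, which also serves cholesterol synthesis, fell by 0.53 (SE 0.08, adjusted p = 0.000107). HSD17B10, a mitochondrial enzyme, fell by 0.38 (SE 0.12, adjusted p = 0.0196), a call lost without si-CHAF1A 2 (adjusted p = 0.0953) or si-CHAF1A 3 (adjusted p = 0.0529). HSD11B2, which inactivates cortisol, and HSD3B7, of bile acid synthesis, had log2 fold changes of 0.60 and 0.15 and did not pass.

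Of 20 carbonyl-reducing enzymes outside the DHRS group 17 were tested, with 7 higher, 1 lower and a median of 0.00. Beside 18.5% of all genes higher and 19.3% lower, these are more higher and fewer lower calls. AKR1C1, AKR1C2 and AKR1C3, aldo-keto reductases of steroids and prostaglandins, had log2 fold changes of 1.47 (SE 0.12, adjusted p = 1.16e-07), 2.75 (SE 0.37, adjusted p = 3e-05) and 0.60 (SE 0.07, adjusted p = 4.08e-06). They are related in sequence, and how reads shared between them were counted is not known. AKR1C2 passed the filter on low counts only through its high si-CHAF1A libraries, so its call is a description. AKR1B1, aldose reductase, rose 1.37-fold to 745 ± 25.9 CPM in si-CHAF1A, against 542 ± 23.8 CPM in si-Ctrl (adjusted p = 2.53e-05). NQO1, a quinone reductase named after its value was seen, fell by 0.34 on the log2 scale.

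Of 22 further enzymes of the superfamily 18 were tested, with 4 higher, 4 lower and a median of -0.10. Without si-Ctrl 2 the count was 4 higher and 6 lower. HSDL2, a peroxisomal and mitochondrial protein, rose 1.84-fold (log2 fold change 0.88, adjusted p = 2.21e-07). KDSR, of sphingolipid synthesis, rose 1.37-fold (adjusted p = 5.47e-05). SPR, of tetrahydrobiopterin synthesis, and UXS1, which makes UDP-xylose, fell by 0.56 (adjusted p = 0.000563) and 0.36 (adjusted p = 0.000396). MDM2, the partner of DHRS2, was higher. It had 232, 250 and 235 CPM in si-CHAF1A, against 185, 154 and 188 CPM in si-Ctrl (log2 fold change 0.45, SE 0.08, adjusted p = 0.000266). CDKN1A, a cell cycle inhibitor, was at 488 ± 20.5 CPM in si-CHAF1A and 491 ± 27.0 CPM in si-Ctrl, and MDM4, a relative of MDM2, at 47.2 ± 2.76 CPM in si-CHAF1A and 51.5 ± 5.39 CPM in si-Ctrl. Neither passed the test with all libraries, but without si-Ctrl 2 MDM4 was lower (log2 fold change -0.21, adjusted p = 0.00954).

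**Figure D5:**
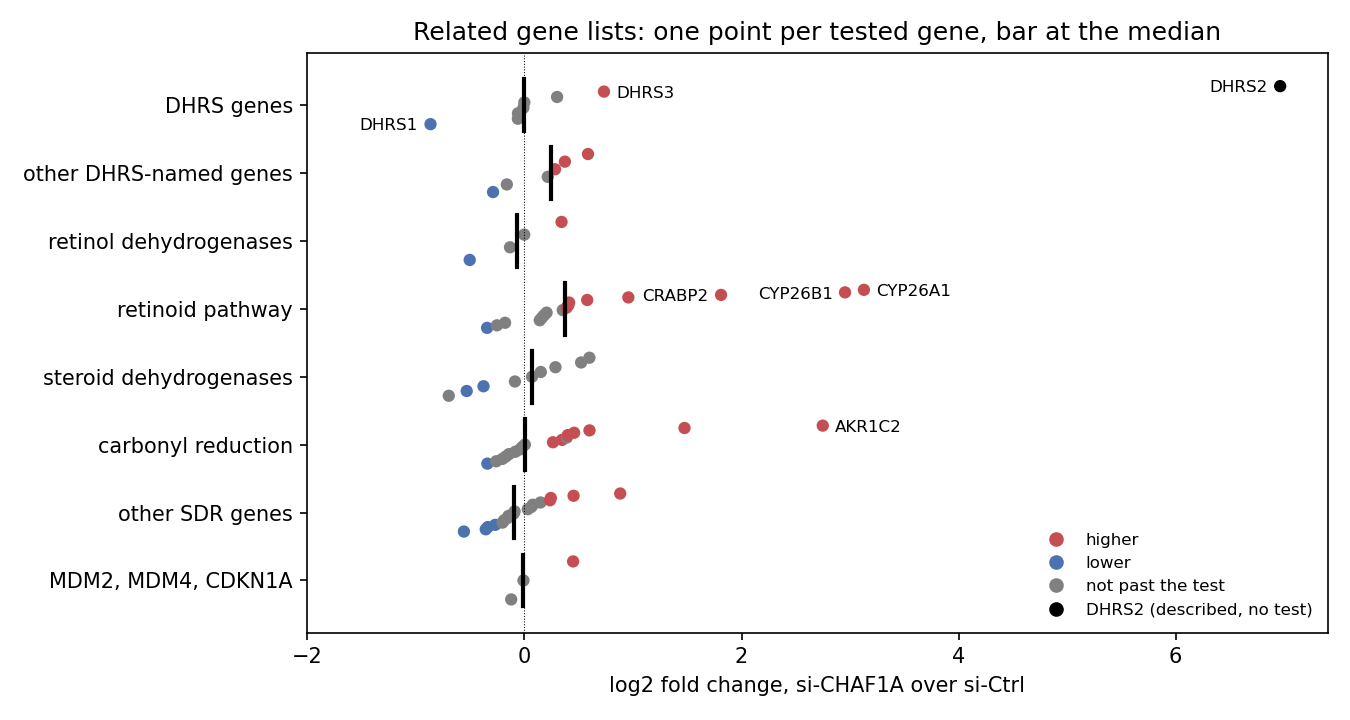
Log2 fold change of si-CHAF1A over si-Ctrl (horizontal axis) for every tested gene of the DHRS group and of 7 related lists (rows), with a bar at each list's median. The 8 tested DHRS genes have their median near 0 with DHRS2 alone at 6.96, the other DHRS-named genes have theirs at 0.25, and the retinoid pathway row has its median at 0.37 with CYP26A1, CYP26B1 and CRABP2 at its right end.

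Markers of other cell types were low but not equal in the groups. Summed fibroblast markers were at 15.7 to 35.6 CPM in si-CHAF1A and 8.66 to 11.5 CPM in si-Ctrl, with PDGFRB higher (log2 fold change 2.04) and COL1A2 at 92, 3 and 1 counts in si-CHAF1A and 1, 0 and 0 in si-Ctrl. Summed endothelial markers were at 6.32 to 8.86 CPM in si-CHAF1A and 2.41 to 3.71 CPM in si-Ctrl, with VWF higher (log2 fold change 2.54). VWF passed the filter on low counts only through its high si-CHAF1A libraries, so its call is a description. Summed hepatocyte markers were at 30.0 to 52.9 CPM in si-CHAF1A and 16.3 to 25.5 CPM in si-Ctrl, nearly all from SERPINA1, with ALB at 10 counts or fewer in every library. Summed leukocyte markers were at 0.561 to 0.654 CPM in si-CHAF1A and 0.959 to 1.16 CPM in si-Ctrl, with CD3E and CD68 at 0 or 1 count. Of the tested markers, 1 of 2 fibroblast, 1 of 2 endothelial and the only hepatocyte marker passed the test, beside 37.8% of all genes. Of the leukocyte markers 0 of 4 could be tested. Sums over a few markers set no limit on what such cells could add to another gene. The part of these marker differences in the DHRS values was not tested.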

How the data were processed

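RNA of 6 RBE cultures was sequenced with reads of 150 bp, from strand-specific libraries per the labels' design text. The authors deposited 1 table of whole-number read counts per gene that had not been normalised. Tools named in the submitters' processing notes are fastp 0.20.1, HISAT2 2.1.0, SAMtools 1.9, featureCounts 2.0.1, StringTie 2.1.4 and hg38, without roles or settings. Of the annotation release and of multi-mapping reads, the sources used here say nothing. Columns NC and si were matched to the titles by group and number, with NC read as negative control, and 0 other columns were present.

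Gene symbols were found for 42337 of 63186 identifiers, and positions and lengths came from GENCODE 29 (GRCh38). Counts were tested with edgeR 4.0.16 (R 4.3.3) by the quasi-likelihood test after TMM scaling and filterByExpr (minimum count 10, minimum total 15), with Benjamini-Hochberg adjustment over 15911 genes and a threshold of 0.05. Values in CPM were computed from the deposited counts with the TMM-scaled sizes of the tested genes. RPKM divides them by transcript length, and log2 CPM for the pattern search used a prior count of 2. The scripts were tested on simulated data. Alternatives were other scalings, DESeq2 1.42.0, limma 3.58.1 (voom), no filter, a replicate block, each library left out and, chosen after seeing the data, another gene length.

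The members and lists were chosen with earlier results of these data known. Named were all members, other DHRS genes, CHAF1A, called neighbours of DHRS2 and the 3 nearest on each side, the 5 nearest profiles, and in each list the calls of at least 1 in log2 size or, with fewer than 4, the 4 smallest adjusted p. Every pair of replicates differed by more than sampling noise. One gene of a related list is not reported here.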

Additional observations from a re-analysis of the deposited data

How the results depend on the processing

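DHRS3 stayed higher and DHRS1 lower under every scaling, tool and filter tried, under the replicate block and with each library left out, and DHRS2 kept a log2 fold change of 6.95 to 6.98 when libraries were left out. DHRS7B was the single lower call among the other DHRS-named genes, and that count of 1 became 0 with DESeq2 size factors in edgeR, with library totals only, with DESeq2 and with the replicate block. Without the filter, 1 steroid dehydrogenase was called higher, against 0. Leaving out 1 library gave 1 to 3 higher and 0 to 1 lower calls among the other DHRS-named genes, 0 to 1 higher and 1 to 2 lower among steroid dehydrogenases, 1 to 2 lower among carbonyl-reducing enzymes, 0 to 1 lower among MDM2, MDM4 and CDKN1A and 3 to 5 higher among DHRS2 neighbours. The fold changes that changed sign all belonged to genes with no call. With library totals only, which moved the median of all genes to 0.05, the log2 values were 0.0403 for DHRS4, 0.0512 for DHRS7, 0.0001 for DHRS13, 0.0504 for RDH5 and 0.0423 for CDKN1A. DHRS7 was at 0.0012 and RDH5 at 0.0006 with DESeq2 size factors, 0.0013 and 0.0027 with DESeq2, and 0.0025 and 0.0014 with the replicate block. Leaving out 1 library moved DHRS4 between -0.0664 and 0.0602, DHRS7 between -0.077 and 0.0463, DHRS12 between -0.161 and 0.0218, DHRS13 between -0.29 and 0.33, DHRSX between -0.67 and 0.64, RDH5 between -0.18 and 0.15, CDKN1A between -0.0537 and 0.0227, ZFHX2 between -0.21 and 0.0117 and THTPA between -0.47 and 0.0594. The cause was not tested. Over the tested genes as a whole, the replicate numbers showed no pairing of the samples. Deviations of same-numbered libraries correlated at -0.09, -0.06 and -0.00, and not every library correlated best with its own number. Single genes may differ, as DHRSX was lowest in replicate 3 of both groups. With the replicate number as a block, 2675 genes were higher and 2723 lower, and the calls of BDH2 (adjusted p = 0.0588) and DHRS7B (adjusted p = 0.0609) were lost. Depth limits DHRS9 and DHRS11, with at most 13 counts a library.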

Other observations

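Genes with a RefSeq promoter stretch free of CpG, the class of DHRS2, were few among the genes tested. Of 113 such genes, 25.7% were higher and 15.04% lower in si-CHAF1A, and 13.3% were called higher and at least doubled. Of 1874 genes with 1 to 9 CpG, 24.4% were higher and 13.3% lower, and 8.91% were called higher and at least doubled. Of 9297 genes with 10 or more CpG, 18.3% were higher and 23.2% lower, and 2.48% were called higher and at least doubled. Over all 11284 tested genes with such a stretch, 19.4% were higher and 21.5% lower, and 3.66% were called higher and at least doubled. These shares are given with no test, and DHRS2 is among the genes counted. The classes were not matched for expression level. Genes very low in 1 group were tested only where the other group passed the filter on low counts. That selection can add large differences to a class of low genes, and its part in these shares was not tested.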
